A study of Mus musculus with 7 samples.

Results

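Immunity-related GTPases (IRGs) and guanylate-binding proteins (GBPs) are the 2 families of large, interferon-inducible GTPases described here in fetal livers without Pcbp2. The set is a list of 10 symbols, Irgm1, Irgm2, Igtp, Iigp1, Tgtp1, Gbp2, Gbp3, Gbp4, Gbp7 and Gbp9. It was chosen by knockout-against-wild-type values of these same libraries, so the difference between the genotypes is a description for these genes and no test is read from it. Symbols were looked up in the authors' deposited table of gene results and joined by identifier to the read counts. Of the 10 symbols 9 were found, which is 9 of the 38924 genes counted, and all 9 passed the filter on low counts. They are 4 IRGs and 5 GBPs. Tgtp1 has no entry in that table and was dropped. Under its GENCODE identifier it held 1, 2 and 2 reads in KO 3, 4 and 5, against 1, 2, 2 and 3 reads in WT 1 to 4, and 79.4% of its 50-base stretches also occur in Tgtp2.

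The libraries are messenger RNA of whole mouse fetal liver at 12.5 days post coitum, from 3 Pcbp2 knockout samples (KO 3, 4 and 5) and 4 wild-type samples (WT 1 to 4). The labels name the genotype only as Pcbp2 knockout or wild type and give no allele, strain, sex, litter or treatment. They do not say that each library came from its own embryo, so a p-value measures only how far these libraries spread. Pcbp2 encodes a protein that binds C-rich RNA and is also known to restrain antiviral signalling through MAVS. It stood at 2.24, 1.39 and 2.22 CPM (reads divided by the TMM-adjusted library size) in KO 3 to 5, against 165, 329, 347 and 338 CPM in WT 1 to 4, 153-fold lower in KO livers. WT 1 held the lowest Pcbp2 level of the WT libraries.

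IRGs and GBPs are among the strongest targets of interferon-gamma in mouse cells, and type I interferons also induce them. Receptor signalling through JAK kinases acts on such promoters at gamma-activated sites (GAS) and at interferon-stimulated response elements (ISRE) that are bound by complexes that hold IRF9 or by IRF1. Once made, the GTPases assemble on the vacuoles of intracellular parasites and bacteria. Irgm1, Irgm2 and Igtp (also called Irgm3) are regulators that sit on the cell's own membranes and hold the effector IRGs inactive there. Iigp1 (Irga6) and Tgtp1 (Irgb6) are effectors that coat the pathogen's vacuole, and GBPs follow them and can trigger inflammasomes. Fetal liver at this age is the main site of blood formation and holds resident macrophages.

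Because the members lie in clusters and are known targets of one pathway, their promoters are shown first. RefSeq start sites on GRCm38.p6 gave a window of 250 bases before and 50 after the start for 6 of the 9 members. Each stretch below is the 120 bases before the start site, 5′ to 3′ on the gene's strand, with capitals marking matches to GAS (TTCNNNGAA) or ISRE (GAAANNGAAA, or TTTCNNTTTC for the other strand). Adjoining matches that overlap run together. They lie at chr11:58199436-58199555 (Igtp, plus strand), chr11:58214857-58214976 (Irgm2, plus), chr11:48871421-48871540 (Irgm1, minus), chr3:142620543-142620662 (Gbp2, plus), chr3:142559924-142560043 (Gbp3, plus) and chr3:142530216-142530335 (Gbp7, plus).
Igtp: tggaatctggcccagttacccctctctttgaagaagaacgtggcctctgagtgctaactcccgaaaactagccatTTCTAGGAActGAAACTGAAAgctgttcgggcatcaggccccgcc
Irgm2: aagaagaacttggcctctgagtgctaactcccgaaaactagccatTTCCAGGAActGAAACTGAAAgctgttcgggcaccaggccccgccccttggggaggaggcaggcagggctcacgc
Irgm1: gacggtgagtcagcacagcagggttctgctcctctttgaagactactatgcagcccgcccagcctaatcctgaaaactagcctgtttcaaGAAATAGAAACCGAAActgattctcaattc
Gbp2: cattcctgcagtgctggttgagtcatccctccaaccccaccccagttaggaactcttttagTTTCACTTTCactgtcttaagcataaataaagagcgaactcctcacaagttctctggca
Gbp3: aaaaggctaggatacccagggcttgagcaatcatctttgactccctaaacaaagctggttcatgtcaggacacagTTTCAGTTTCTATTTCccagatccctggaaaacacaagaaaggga
Gbp7: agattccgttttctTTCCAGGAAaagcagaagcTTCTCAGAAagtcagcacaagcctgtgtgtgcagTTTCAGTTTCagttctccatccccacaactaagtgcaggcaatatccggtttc

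An ISRE match lay in the windows of 6 of these 6 members, whereas 3.44% of all 32851 windows in the table hold one. A GAS match lay in 3 of the 6, against 8.3% of all windows, and Igtp, Irgm2 and Gbp7 held both, as do 0.454% of all windows. In Igtp the GAS match starts 45 bases and the ISRE match 34 bases before the start site. In Irgm2 the same pair starts 75 and 64 bases before the start site, so the motifs are 11 bases apart, start to start, in both promoters. Gbp7 has GAS matches 106 and 87 bases before its start and an ISRE match at 53. Irgm1, Gbp2 and Gbp3 hold ISRE matches without a GAS match in their windows, and a further RefSeq window of Gbp3 held neither. Aligned without gaps at their best offset, the Igtp and Irgm2 windows match at 184 of 270 bases (68.1%) and share an identical run of 61 bases, while the Igtp and Irgm1 windows share a run of 11 bases at most. A match describes letters in a window and is no evidence of binding, and a window without GAS letters says nothing of what binds there.

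Igtp and Irgm2 were the members furthest below wild type. Gbp7, whose window also held both motifs, was the member least below it, at a log2 fold change of -0.30 ± 0.29. Whether motifs and fold changes go together was not tested. Igtp had 8.35, 3.62 and 3.99 CPM in KO 3 to 5, against 42.8, 29.4, 26.8 and 20.1 CPM in WT 1 to 4. The highest KO library was below the lowest WT library, and the fitted log2 fold change was -2.49 ± 0.33 (SE), or 5.62-fold lower in KO livers. Irgm2, a regulator of the same subfamily, had 12.0, 4.59 and 5.22 CPM in KO 3 to 5 and 62.3, 37.2, 38.5 and 32 CPM in WT 1 to 4. Its groups did not overlap either, and its log2 fold change was -2.55 ± 0.35, or 5.87-fold lower. KO 3 was the highest KO library for both genes and WT 1 the highest WT library. Leaving out 1 library at a time kept Igtp between -2.97 and -2.27 and Irgm2 between -3.12 and -2.30, with both extremes on the low side reached without KO 3.

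The 2 genes overlap on the plus strand of chromosome 11, Igtp at chr11:58199556-58207591 and Irgm2 at chr11:58199618-58222782 (GENCODE M21, mm10). The RefSeq start site of Irgm2 used for its promoter lies inside that M21 gene, whose earliest annotated transcript begins beside the Igtp start. Their annotated exons share 162 bases, 8.01% of Igtp and 4.39% of Irgm2, and 11.8% and 6.79% of their 50-base stretches occur in the other. The ratio of Igtp reads to Irgm2 reads was 0.70, 0.79 and 0.77 in KO 3 to 5, against 0.69, 0.79, 0.70 and 0.63 in WT 1 to 4, so the pair kept similar proportions in both genotypes. How reads in the shared stretch were split in the authors' counting is unknown.

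Irgm1, the third regulator, lies on the minus strand at chr11:48861968-48871683, 9.33 Mb away. It had 16.4, 13.6 and 14.8 CPM in KO 3 to 5, against 34.5, 41.6, 18.5 and 17.0 CPM in WT 1 to 4. The groups did not overlap, but WT 3 and WT 4 were close to the KO libraries and WT 1 and WT 2 were well above them. Its log2 fold change was -0.90 ± 0.29. Iigp1, the effector IRG of chromosome 18, had 14.6, 5.38 and 10.5 CPM in KO 3 to 5 and 15.5, 18.1, 10.5 and 11.7 CPM in WT 1 to 4. These groups overlapped, at a log2 fold change of -0.47 ± 0.30, which ran between -0.82 without KO 3 and -0.16 without KO 4.

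Gbp2 was the GBP with the clearest separation of the genotypes. It had 8.32, 7.92 and 7.64 CPM in KO 3 to 5, against 19.7, 18.5, 14.2 and 15.4 CPM in WT 1 to 4, a log2 fold change of -1.09 ± 0.14. Its KO libraries lay within 1.09-fold of each other, the narrowest range of the 9 members. Gbp2 carries a lipid anchor at its C terminus and is among the GBPs known to reach the vacuole of Toxoplasma in mouse cells. Its cluster neighbours on chromosome 3 were less separated. Gbp3 had 2.09, 1.41 and 1.71 CPM in KO 3 to 5 and 4.33, 4.34, 2.03 and 2.32 CPM in WT 1 to 4. KO 3 was above WT 3, and the log2 fold change was -0.91 ± 0.32. Gbp7 had 12.0, 5.82 and 6.62 CPM in KO 3 to 5 and 11.9, 13.1, 8.07 and 6.99 CPM in WT 1 to 4. Only WT 2 exceeded every KO library, and the log2 fold change was -0.30 ± 0.29. Of the 50-base stretches of Gbp7, 12.7% occur in another gene, most of them in the overlapping Gm43802.

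Gbp4 and Gbp9, which lie in the GBP cluster of chromosome 5, followed the pattern of Irgm1. For Gbp4 the values were 4.48, 3.11 and 3.65 CPM in KO 3 to 5, against 8.87, 8.20, 5.09 and 5.47 CPM in WT 1 to 4, with a log2 fold change of -0.88 ± 0.24. For Gbp9 they were 4.45, 3.35 and 3.28 CPM in KO 3 to 5, against 8.36, 8.93, 4.82 and 4.76 CPM in WT 1 to 4, with a log2 fold change of -0.86 ± 0.27. Neither gene overlapped between the genotypes, although WT 3 and WT 4 came within 1 CPM of KO 3. The annotated exons of Gbp4, Gbp8 and Gbp9 share 60 to 61 bases, and 7.78% of Gbp4 and 8.05% of Gbp9 50-base stretches occur in another gene.

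**Figure D1:**
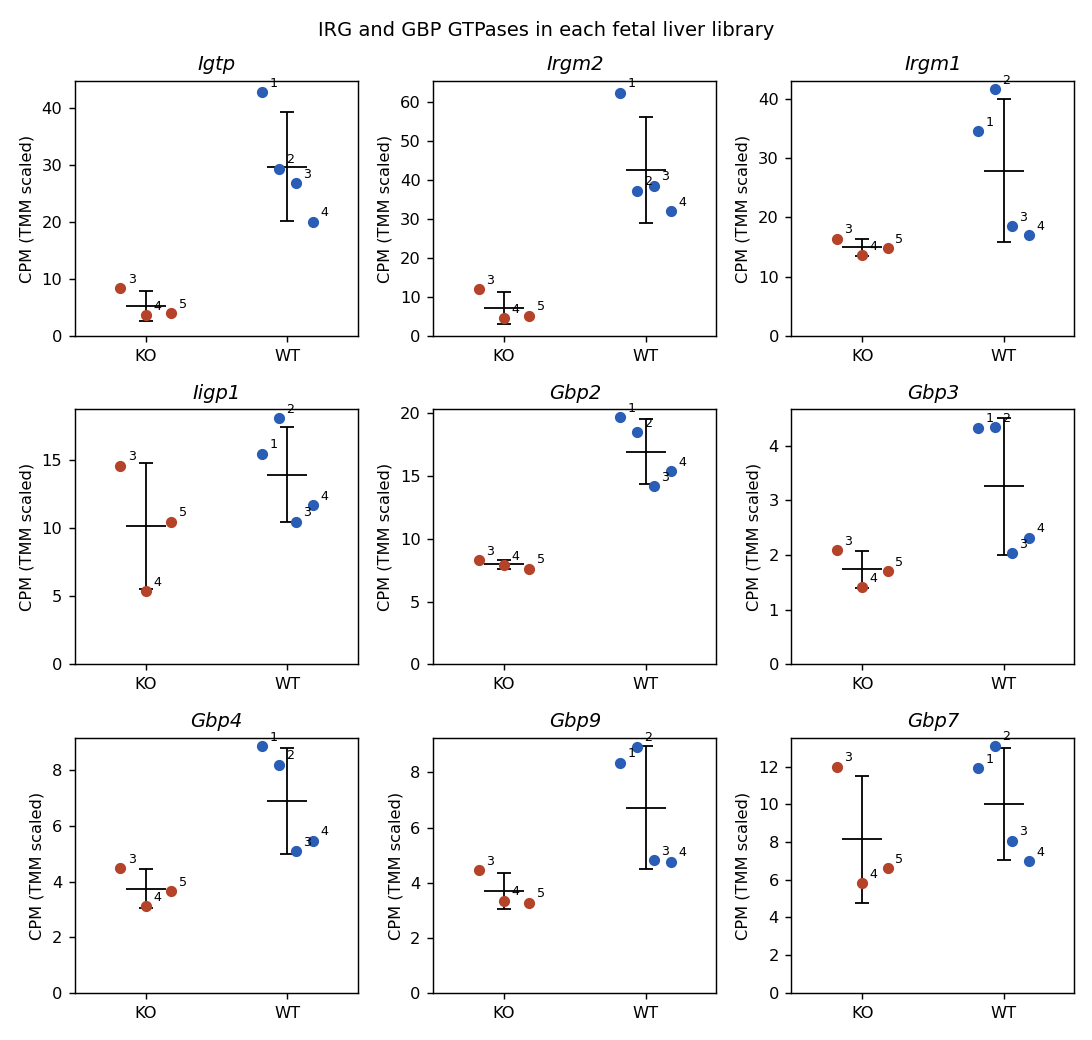
Each panel plots 1 member, with TMM-scaled CPM on a linear axis from 0, a point per library labelled by replicate number, and the mean with its SD as bars (KO left, n = 3; WT right, n = 4). Igtp, Irgm2 and Gbp2 are high in all 4 WT libraries, while for Irgm1, Gbp3, Gbp4 and Gbp9 WT 1 and WT 2 are high and WT 3 and WT 4 are near the KO libraries.

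Across the set, 9 of 9 log2 fold changes were below 0, with a median of -0.90, beside a median of 0.01 over all 16226 genes tested. Under total-count scaling the median of all genes moved to 0.14, and the members stayed below 0, between -2.43 for Irgm2 and -0.18 for Gbp7. Igtp, Irgm2 and Gbp2 passed the threshold of an adjusted p under 0.05 in edgeR's quasi-likelihood test, where 3.43% of all genes were called lower and 5.02% in either direction. The KO libraries were all below the WT libraries for 6 of 9 members, against 10.8% of all genes. Since this contrast chose the members, these counts are a description only. The number of called genes behind that background, 814, depended on single libraries: it was 349 without KO 4, 140 without KO 5, 511 without WT 1, 365 without WT 3 and 417 without WT 4. Igtp, Irgm2 and Gbp2 were past the threshold in every one of the 13 alternative settings. Those settings refit the libraries that chose the members, so they are no independent check. All 9 members had a negative log2 fold change in the authors' deposited table, from -2.35 ± 0.28 (Igtp) and -2.24 ± 0.39 (Irgm2) to -0.28 ± 0.27 (Gbp7), and 7 of 9 had an adjusted p under 0.05, as did 10.9% of the 15548 genes in the authors' deposited table.

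Levels were compared between genes per kilobase of annotated exon. In KO livers Gbp2 was highest at 3.16 ± 0.135 CPM per kb (SD, n = 3), followed by Igtp at 2.63 ± 1.3, Irgm1 at 2.57 ± 0.243 and Irgm2 at 1.97 ± 1.11. In WT livers Igtp led at 14.7 ± 4.71 CPM per kb (SD, n = 4), followed by Irgm2 at 11.5 ± 3.66, Gbp2 at 6.73 ± 1.02 and Irgm1 at 4.8 ± 2.08. The order below these was the same in both genotypes, namely Iigp1, Gbp7, Gbp9, Gbp3 and Gbp4, ending at 0.500 ± 0.0917 in KO livers and 0.922 ± 0.254 in WT livers. Most neighbours in these orders overlapped in their library ranges. The gaps without overlap were those between Gbp7 and Gbp9 in KO livers and between Irgm2 and Gbp2 in WT livers. Because these are bulk samples, fewer cells of a type and less RNA per cell cannot be told apart.

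Resident macrophages are one source of these transcripts in liver. Of 14 macrophage markers 13 were tested and 7 fell in KO livers (edgeR, adjusted p under 0.05), with a list median of -0.69. Over all genes tested 3.43% fell. Their summed level was 338, 279 and 252 CPM in KO 3 to 5, against 460, 427, 380 and 416 CPM in WT 1 to 4. Csf1r, the receptor for the macrophage growth factor, fell by 0.62 on the log2 scale and C1qb, a complement subunit made by macrophages, fell by 0.95. Marco, a scavenger receptor, fell by 2.88, whereas Cd68 (-0.00 ± 0.13), Mrc1 (-0.01 ± 0.17) and Cd163 (0.38 ± 0.46), other macrophage surface or lysosomal proteins, did not pass (adjusted p = 0.995, 0.989 and 0.674 in edgeR). Vsig4, the marker that was not tested, had no reads in any KO library and 3, 4, 4 and 4 reads in WT 1 to 4. A count of 0 allows 3 reads, so these counts are too low to compare. Of 12 endothelial markers 4 were higher in edgeR, with a list median of 0.47, and over all 16226 genes tested 258 were higher. Lyve1 (-0.01 ± 0.20) and Tek (0.12 ± 0.15) stayed near 0. The endothelial sums were 356 to 428 CPM in KO livers, against 253 to 334 CPM in WT livers. Lymphoid markers summed to 1.59 to 1.94 CPM in KO livers and 3.45 to 4.64 CPM in WT livers, and Ncr1, a natural killer cell receptor, had no reads in any library. The sum of 8 erythroid markers was 1281.7 to 2085.0 CPM in KO livers and 3057.5 to 5935.6 CPM in WT livers, with 6 of 8 lower. Of the megakaryocyte markers 4 of 5 were lower, and of the granulocyte markers 1 of 8. Of 7 hepatoblast markers 0 passed in edgeR, with 1 at an unadjusted p under 0.05 and 1 called by DESeq2, and they summed to 6669.7 to 8688.5 CPM in KO livers and 4939.1 to 11250.8 CPM in WT livers. The part of any cell type in the GTPase values was not tested.

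The libraries within a genotype differed in an order that most members shared. KO 3 was the highest KO library for 9 of 9 members, as it was for 39.6% of all genes tested. WT 1 and WT 2 were the highest WT libraries for 8 of 9 members, against 13.4% of all genes, and the exception was Irgm2, where WT 3 exceeded WT 2. KO 3 also carried the most heart muscle transcript, with a marker sum of 181 CPM beside 47.9 and 69.7 CPM in KO 4 and KO 5 and 47.8 to 63.9 CPM in WT livers. Of the 4 heart genes 2 were higher in KO livers in edgeR, as were 258 of all 16226 genes tested. Myh6, a heart myosin, had 37.9, 2.18 and 11.4 CPM in KO 3 to 5, against 0.305, 0.220, 0.274 and 0.782 CPM in WT 1 to 4 (adjusted p = 0.00871). Nppa, the atrial peptide hormone, had 10.2, 0.309 and 3.05 CPM in KO 3 to 5, against 0.0339, 0.0488, 0 and 0.046 CPM in WT 1 to 4 (adjusted p = 0.0104). WT 2 carried the most adrenal transcript, 20.8 CPM beside 1.4 to 3.05 CPM in the other 6 libraries. Reads outside annotated genes made up 6.75 to 7.61% of reads in KO libraries and 4.89 to 5.94% in WT libraries. The part of these differences in the GTPase values was not tested.

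The profile over the 7 libraries was compared between genes as the root mean square distance between log2(CPM + 0.1) values, each centred on its gene's mean. From the mean member profile the members themselves lay between 0.174 (Gbp4) and 0.783 (Irgm2), with Igtp at 0.711. The 5 closest other genes averaging 5 CPM or more were Ms4a6c at 0.126, AI607873 (named Ifi207 in GENCODE M21) at 0.143, Slfn2 at 0.159, Ly86 at 0.176 and Fcgr1 at 0.182, among 11248 candidates with a median distance of 0.682. Ms4a6c, for example, had 12.9, 8.61 and 9.15 CPM in KO 3 to 5, against 30.0, 23.7, 14.7 and 17.1 CPM in WT 1 to 4. Fcgr1, the high-affinity IgG receptor, is also 1 of the 14 macrophage markers above. The distance describes likeness over 7 libraries of 2 genotypes and has no test.

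**Figure D2:**
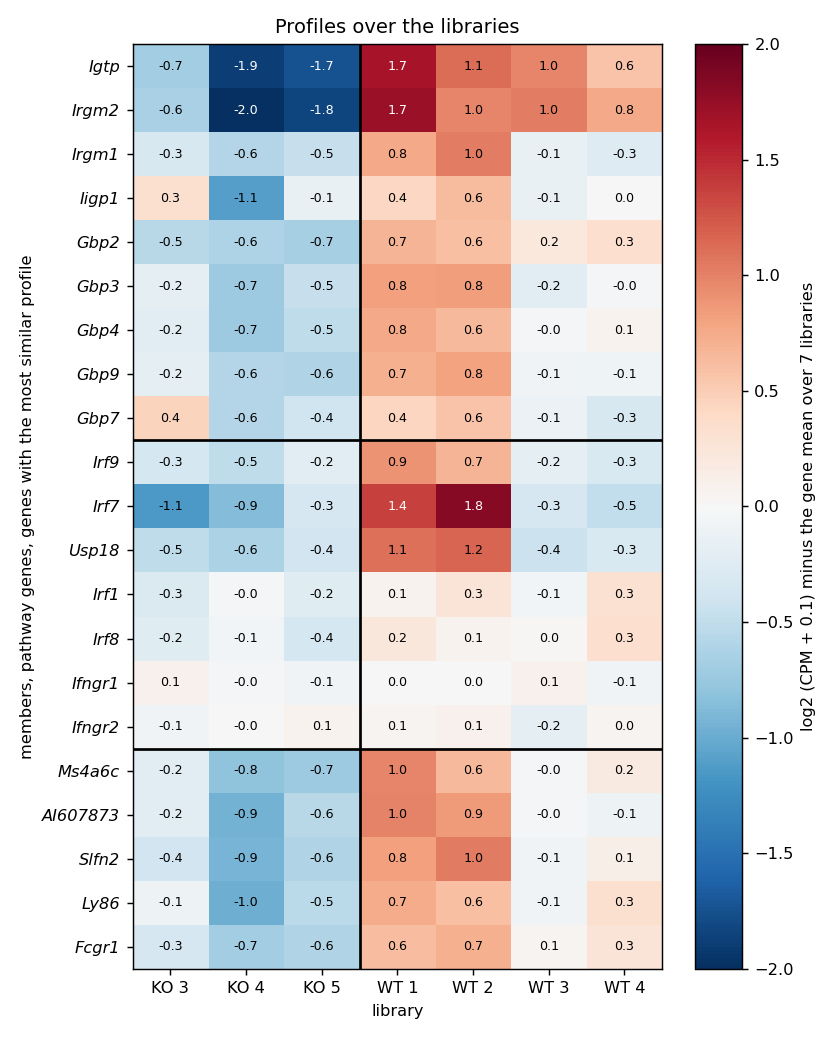
Rows are genes and columns libraries (KO left, WT right), and each cell gives log2(CPM + 0.1) minus that gene's mean over the 7 libraries, from low (blue) to high (red). The top block holds the 9 members, the middle block transcription factors, the inhibitor Usp18 and receptor subunits, and the bottom block the 5 genes with the closest profile. Most rows of the top and bottom blocks are highest in WT 1 or WT 2, and Ifngr1 and Ifngr2 stay within about 0.2 of their mean in every library.

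Other IRG and GBP genes of the mouse, listed with the very large interferon-inducible GTPases, are not members and were tested in the same fit. This list too was drawn up with earlier results of these data known, so its counts are no independent check of the members. Of 23 listed symbols, 21 were matched to an identifier in the counts and 15 were tested. For 4 of the 15, most 50-base stretches also occur in another gene. In edgeR 2 of 15 fell, and 14 of 15 had a log2 fold change below 0, with a median of -0.78. The KO libraries were all below the WT libraries for 7 of 15, 7 had an unadjusted p under 0.05, and DESeq2 called 6. Over all 16226 genes tested, 3.43% fell in edgeR, 7774 were below 0 and the median was 0.01. The KO libraries were all below the WT libraries for 10.8% of all genes. An unadjusted p under 0.05 was reached by 3535 genes in edgeR, and DESeq2 called 1674, in either direction. Ifi47 (also called Irg47), an effector-type IRG on chromosome 11, had 4.60, 4.06 and 3.42 CPM in KO 3 to 5, against 10.3, 9.27, 6.51 and 5.91 CPM in WT 1 to 4. Its log2 level fell by 0.99 ± 0.22 (adjusted p = 0.0347 in edgeR). That call was lost in 6 of 13 alternatives, among them those without KO 4 (adjusted p = 0.0943), KO 5 (0.154), WT 1 (0.0728) and WT 3 (0.0524), and the adjusted p over all alternatives ran between 0.000808 and 0.154. The other, 9930111J21Rik1 on chromosome 11, fell by 0.92 ± 0.22 (adjusted p = 0.044), but 83.2% of its 50-base stretches occur in another gene. Leaving out any library but KO 3 raised its adjusted p to between 0.0546 (without WT 2) and 0.181 (without KO 5), by way of 0.0732 (WT 4), 0.0774 (WT 3), 0.0856 (WT 1) and 0.124 (KO 4).

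Gm12250 (also called Irgb10), an effector IRG that acts with GBPs on bacterial membranes, lies next to Igtp and had 1.06, 0.507 and 1.23 CPM in KO 3 to 5 and 3.45, 3.49, 1.61 and 1.2 CPM in WT 1 to 4. WT 4 was below KO 5, and its log2 fold change of -1.40 ± 0.45 did not pass (adjusted p = 0.108). The gene that the authors' table names Gbp5 carries an identifier that GENCODE M21 names Gbp2b, and it stood at -1.42 ± 0.41 (adjusted p = 0.0773; -1.88 and 0.042 without KO 3). The gene that the authors' table names Gbp6 is Gm43302 in GENCODE M21, all of its 50-base stretches occur in another gene, and it stood at -1.47 ± 0.41 (adjusted p = 0.0719). Gbp8 and Gbp11 were at -0.46 ± 0.22 and -0.35 ± 0.46 (adjusted p = 0.256 and 0.700). On chromosome 11, Gm5431 was at -1.39 ± 0.46 and 9930111J21Rik2 at -0.73 ± 0.38 (adjusted p = 0.111 and 0.295), and both share sequence with 9930111J21Rik1. Without KO 3, 9930111J21Rik2 was at -1.39 and passed (adjusted p = 0.034). On chromosome 18, Gm4951 was at -1.20 ± 0.42 and F830016B08Rik at -0.23 ± 0.41 (adjusted p = 0.127 and 0.788).

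The chromosome 7 genes Gvin1, Gm1966 and Gm8995, which belong to the very large interferon-inducible GTPases, had log2 fold changes of -0.74 ± 0.70, -0.78 ± 0.41 and -0.68 ± 0.33 (adjusted p = 0.583, 0.302 and 0.264), and Gvin1 was at -0.15 without KO 4. Irgq, a family member that is not induced by interferon, was the exception in direction. It had 20.3, 22.1 and 21.6 CPM in KO 3 to 5 and 17.1, 25.1, 21.3 and 19.8 CPM in WT 1 to 4, at 0.03 ± 0.14 (adjusted p = 0.923), and its sign turned to -0.05 without WT 1. Its difference from the other family genes was not tested.

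**Figure D3:**
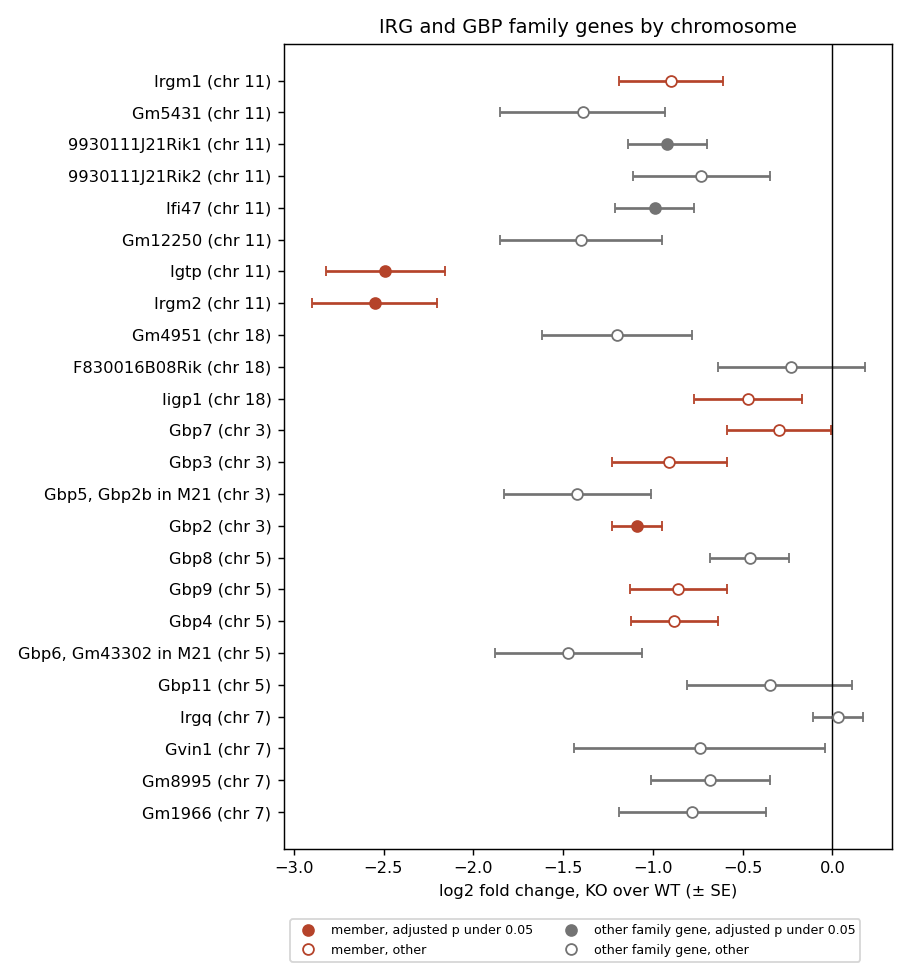
Points are edgeR log2 fold changes, KO over WT, with SE bars for the 9 members (red) and 15 other tested family genes (grey), ordered by chromosome and position; filled points have an adjusted p under 0.05. Igtp and Irgm2 lie near -2.5, the other genes between -1.47 and 0.03.

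Igtp and Irgm2 were also set beside the genes around them, a comparison chosen after their values were seen. Within 500 kb on either side 15 other genes were tested, with a median log2 fold change of -0.17 and a range of -1.40 to 0.40. The lowest was Gm12250, 10.5 kb before Igtp. Of the 15, 2 fell, against 3.43% of all genes tested. They were Galnt10, an enzyme that starts O-glycans, and Trim58, a ubiquitin ligase of maturing red cells. Neither of the closest tested genes outside the IRG cluster on each side, Mrpl22 and 4930438A08Rik, passed, at -0.31 and -0.53.

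**Figure D4:**
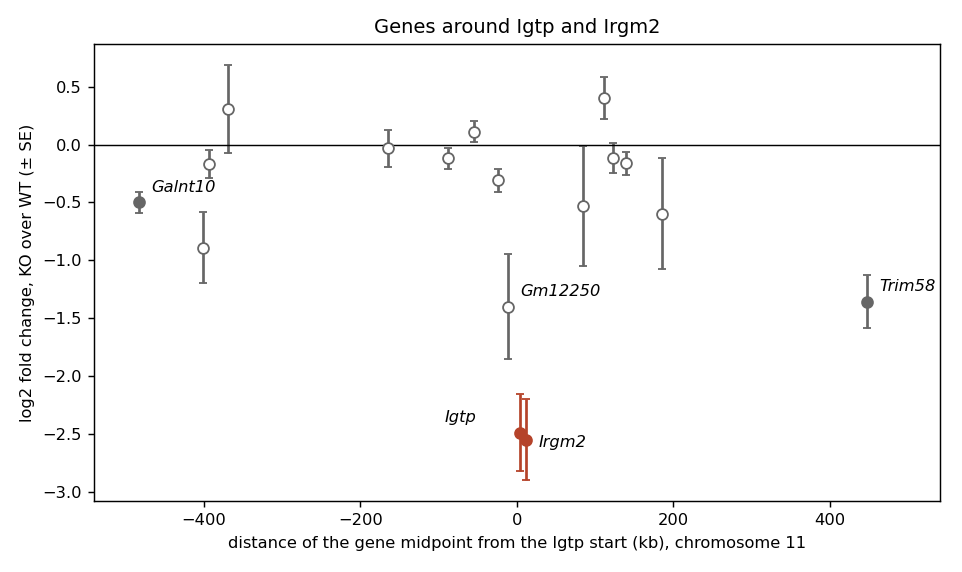
The horizontal axis is the distance of each gene's midpoint from the start of Igtp in kb and the vertical axis the edgeR log2 fold change, KO over WT, with SE bars; filled points have an adjusted p under 0.05. Igtp and Irgm2 (red) lie at -2.49 and -2.55, below the 15 other tested genes within 500 kb.

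Genes that act before and with the GTPases were examined as 8 lists, from ligands to partner proteins. Of 82 listed genes 66 were tested, 4 fell and none passed as higher in edgeR (1 at an unadjusted p under 0.05, none by DESeq2). Of the 66, 53 had a log2 fold change below 0 and the median was -0.20. Over all 16226 genes tested, 7774 were below 0, the median was 0.01 and 3.43% fell in edgeR. Interferon ligands were at the limit of detection. Ifng, the main inducer of these GTPases, had no read in any of the 7 libraries, which allows up to 0.0673 to 0.094 CPM per library by counting error, and 8 of 13 ligand genes had none. Il12a and Il18, genes of cytokines that prompt lymphocytes to make interferon-gamma, were tested and stood at -0.72 ± 0.26 and -0.62 ± 0.22 (adjusted p = 0.139 each). Neither passed in edgeR or DESeq2, and both had an unadjusted p under 0.05. Il12a encodes only a chain of its cytokine. Il12b, the gene of the other chain, was not tested, with no reads in any KO library and 0, 1, 0 and 1 reads in WT 1 to 4.

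Neither chain of the interferon-gamma receptor passed the test. Ifngr1 had 40.8, 37.5 and 36.4 CPM in KO 3 to 5 and 38.4, 38.4, 40.7 and 36.6 CPM in WT 1 to 4, at -0.01 ± 0.09 (adjusted p = 0.963). Ifngr2 had 31.5, 33.2 and 34.8 CPM in KO 3 to 5 and 34.6, 35.2, 29.4 and 34.4 CPM in WT 1 to 4, at -0.01 ± 0.10 (adjusted p = 0.963), and the sign of both values turned under several alternatives. Of 7 receptor and kinase genes 1 fell. This was Ifnar2, a chain of the type I interferon receptor, with 30.0, 28 and 25.4 CPM in KO 3 to 5, against 43.8, 37.5, 39.4 and 35.3 CPM in WT 1 to 4, and its log2 level fell by 0.49 ± 0.11 (adjusted p = 0.034 in edgeR). Its call was lost under 6 of 13 alternatives, with adjusted p of 0.0961 without KO 4, 0.178 without KO 5, 0.0654 without WT 1, 0.0857 without WT 3 and 0.0527 without WT 4, and 0.00151 at the lowest.

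Of the transcription factors 8 of 11 were tested and 0 passed in edgeR or DESeq2, with 5 at an unadjusted p under 0.05 and a list median of -0.36. Irf9, a subunit of the complex that binds ISREs, had 17.1, 15.2 and 18.5 CPM in KO 3 to 5 and 40.6, 35.0, 19.2 and 17.5 CPM in WT 1 to 4, at -0.73 ± 0.28 (adjusted p = 0.159). Irf7, which amplifies type I interferon, had 1.63, 2.01 and 2.94 CPM in KO 3 to 5 and 9.78, 13.4, 2.93 and 2.62 CPM in WT 1 to 4. Only WT 1 and WT 2 stood above the KO libraries, and its log2 fold change of -1.71 ± 0.56 did not pass (adjusted p = 0.108), though it did with no filter on low counts (0.0412). Irf1 and Irf8, which act on these promoters in macrophages, were at -0.33 ± 0.13 and -0.39 ± 0.14 (adjusted p = 0.190 and 0.131).

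Inhibitors of the pathway had 0 of 9 called in edgeR, with 1 at an unadjusted p under 0.05 and 1 called by DESeq2. That gene was Usp18, itself an interferon target that shuts off the type I receptor, with 2.0, 1.83 and 2.20 CPM in KO 3 to 5 and 6.33, 6.64, 2.13 and 2.32 CPM in WT 1 to 4, at -1.11 ± 0.42 (edgeR, adjusted p = 0.151). Socs3, which blocks JAK kinases, was at -0.24 ± 0.16, and the phosphatases Ptpn11 and Ptpn6 were both at -0.18 (adjusted p = 0.427, 0.319 and 0.458).

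Targeting of IRGs and GBPs to vacuoles needs the Atg8 conjugation machinery of autophagy, and 1 of 15 of its genes fell. Gabarapl2, an Atg8 protein of the GABARAP branch, which is needed to place these GTPases in mouse cells, had 53.8, 61.1 and 62.4 CPM in KO 3 to 5, against 122, 87.7, 90.7 and 97.8 CPM in WT 1 to 4. Its log2 level fell by 0.75 ± 0.13 (adjusted p = 0.0113 in edgeR), and of 13 alternatives only that without KO 5 ended the call (0.0575). The list median was -0.13. Of 6 genes for prenylation, the lipid tail of some GBPs, 0 passed in edgeR or DESeq2, with 1 at an unadjusted p under 0.05. Fntb and Fnta, the subunits of farnesyltransferase, were at -0.27 ± 0.11 and -0.15 ± 0.08, and Rce1 and Icmt, which trim and methylate the tail, at -0.15 ± 0.13 and -0.11 ± 0.10 (adjusted p = 0.177, 0.320, 0.540 and 0.542). Icmt turned to 0.01 under total-count scaling.

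Inflammasome genes, which GBPs can engage, had 1 of 7 called and a median of -0.65. Casp1, the protease that activates interleukin-1 beta, had 4.63, 3.02 and 3.17 CPM in KO 3 to 5, against 10.7, 6.59, 5.61 and 6.95 CPM in WT 1 to 4, and its log2 level fell by 1.05 ± 0.25 (adjusted p = 0.0427 in edgeR). Its call was lost without KO 4 (0.126), KO 5 (0.171), WT 1 (0.0728), WT 3 (0.0515) or WT 4 (0.0837) and under total-count scaling (0.0514), and the lowest adjusted p was 0.00141. Of the other interferon-gamma targets 12 of 14 were tested, 1 fell and 11 were below 0, with a median of -0.82, and DESeq2 called 5. Cxcl10, a chemokine that draws T cells, had 1.12, 1.74 and 1.83 CPM in KO 3 to 5, against 5.38, 4.03, 4.21 and 2.32 CPM in WT 1 to 4, and its log2 level fell by 1.34 ± 0.31 (adjusted p = 0.0362 in edgeR). Leaving out KO 3 (0.083), KO 4 (0.0821), KO 5 (0.112), WT 1 (0.0774) or WT 3 (0.0868) ended that call, and the lowest adjusted p was 0.000705. WT 1 and WT 2 were the highest WT libraries for 9 of these 12 targets, as for 8 of 9 members, and for 1 of 15 Atg8 genes.

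**Figure D5:**
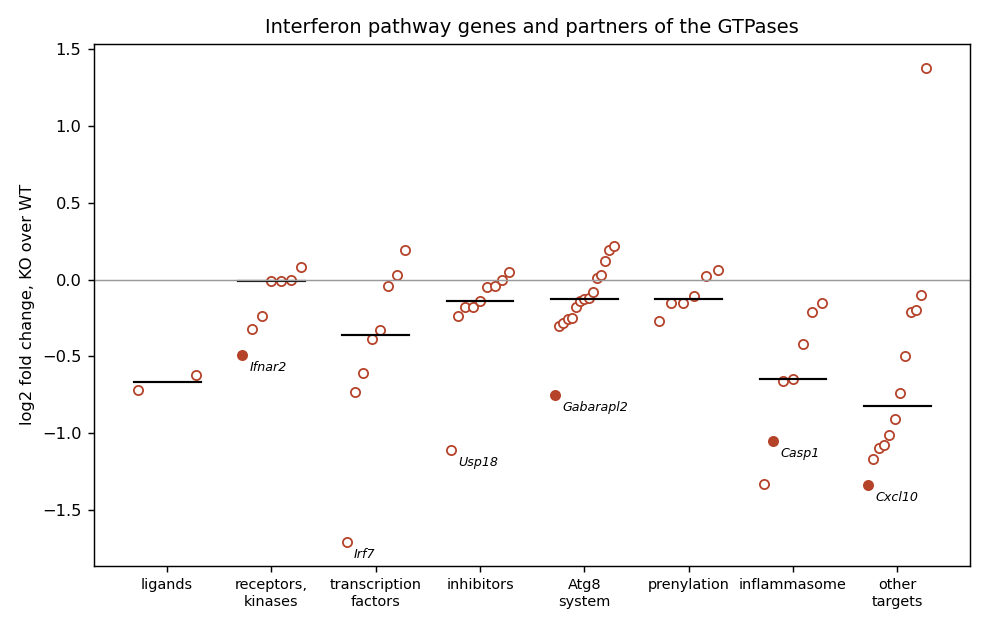
Each point is the edgeR log2 fold change, KO over WT, of 1 of 66 tested genes, grouped in 8 lists, with a bar at each list's median; filled points have an adjusted p under 0.05. The medians run from -0.82 for other interferon-gamma targets to -0.01 for receptors and kinases, and the 4 filled points are Ifnar2, Gabarapl2, Casp1 and Cxcl10.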

How the data were processed

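Messenger RNA of fetal liver was sequenced from 3 KO and 4 WT samples with a stranded TruSeq protocol, per the labels. The submitters' processing notes name cutadapt 1.4.2, TopHat2, HTSeq, DESeq2, DESeq and build mm10, without settings. Deposited were raw counts of reads for 38924 genes and 5 HTSeq summary lines, which were left out of library sizes. Reads in genes numbered 31898339 to 42378821 in KO and 32240949 to 44544889 in WT libraries. Reads without a gene, ambiguous or not unique made up 4.89 to 7.61%, 0.447 to 0.536% and 11.3 to 19.6% of the reads so classed. The authors' deposited table gives a baseline signal (mean normalized count), a log2 fold change, its standard error, a test score and p-values. Its direction, KO over WT, matched the sign of the counts for 99.2% of 15542 genes.

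Counts were fitted in R 4.3.3 with edgeR 4.0.16 (filterByExpr defaults, 16226 genes kept, 22698 removed; TMM; quasi-likelihood test, genotype as the only term, Benjamini-Hochberg adjustment over all genes, threshold 0.05). Calls were tested on simulated data. CPM are TMM scaled. A count of 0 allows 3 reads, and floors and intervals cover counting error only. Names, coordinates and exon lengths come from GENCODE M21 on mm10, matched for 37607 identifiers, and promoters from RefSeq. Motifs were searched on both strands.

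The members and lists were chosen with earlier results of these data known. The text names all members, all tested family genes, the called genes of each list or otherwise up to 4 with the smallest p, Irf1, Irf8, Ifngr1, Ifngr2, Ifng, and the 5 genes closest in profile. Of the genes so named, 1 is not reported here. Alternatives were no filter, at least 5 CPM in 3 libraries, RLE and total-count scaling, DESeq2 1.42.0, the replicate number as a block, and each library left out.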

Additional observations from a re-analysis of the deposited data

Results flagged for a closer look

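In groups of 4 libraries, 2 of 45 genes examined had a WT library whose gap to the nearest of the others, divided by the range, exceeded Dixon's 95% critical value. Gbp11 stood at 1.08 CPM in WT 1, above the other WT libraries (ratio 0.861), and Ifngr2 at 29.4 CPM in WT 3, below the others (ratio 0.853). Chance flags about 1 in 20 such groups.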

How the results depend on the processing

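The 814 genes called over the whole table became 1674 with DESeq2 and 2056 with the replicate block, and 140 to 1171 with 1 library left out. Members called lower were 3 in the fit reported, 5 with no filter (Irgm1 and Gbp4 added), 6 with DESeq2 (Irgm1, Gbp4 and Gbp9 added) and 3 to 3 with 1 library left out. The other family genes called, 2, became 1 with at least 5 CPM in 3 libraries, 0 with total-count scaling, 6 with DESeq2, 0 with the replicate block and 0 to 4 with 1 library left out. Pathway genes called, 4, became 8 with no filter, 2 with total-count scaling, 10 with DESeq2, 7 with the replicate block and 0 to 5 with 1 library left out.

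The block used the numbers in the titles. Only 3 and 4 occur in both genotypes and the labels do not say what they mark, so they were not taken as pairs. WT 1, WT 2 and KO 5 each have a number to themselves. With the block the genotype difference therefore rests on KO 3, KO 4, WT 3 and WT 4 alone, without the WT libraries highest for most members. The spread of a gene within that fit is estimated from KO 3, KO 4, WT 3 and WT 4 alone as well. Almost no residual freedom is left, so its larger count of calls is no firmer than that of the fit reported. Deviations from the group means correlated at 0.312 (KO 3 and WT 3) and 0.246 (KO 4 and WT 4). These were the highest values of any KO and WT pair. Pairs with unlike numbers ran from -0.322 (KO 5 and WT 3) to 0.149 (KO 5 and WT 1). Whether a shared number marks a litter or batch was not tested. With the block Irgm1 was at -0.25, Gbp3 at -0.34, Gbp4 at -0.50, Gbp9 at -0.31 and Gbp7 at 0.16, against -0.90, -0.91, -0.88, -0.86 and -0.30 without it. Igtp, Irgm2 and Gbp2 were at -2.06, -2.22 and -0.87. Among other genes the block moved Gbp5 to -0.75, Gbp6 to -0.74, Gm5431 to -0.44, Irf7 to -0.60 and Usp18 to -0.22, against -1.42, -1.47, -1.39, -1.71 and -1.11 without it.

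Some values near 0 changed sign. F830016B08Rik (-0.23) was 0.31 with the block and -0.64 to 0.02 with 1 library left out, and Irgq (0.03) was -0.05 to 0.12. Icmt (-0.11) was 0.01 with total-count scaling. Ifngr1 and Ifngr2 (-0.01 each) were both at 0.11 with total-count scaling and 0.02 with the block, and ran from -0.06 to 0.03 and from -0.07 to 0.02 with 1 library left out. The cause of these changes was not tested. Of the recomputed log2 fold changes of genes that are not members, 396 kept direction and side of the threshold, 32 lost a call, 9 gained one and 15 changed sign. Genes of few reads, such as Tgtp1, are limited by counting error. For Tgtp1, 81.2% of the 50-base stretches also occur in another gene, and what keeps its count low was not tested.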
